A study of Rattus norvegicus with 6 samples.

Results

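The genes described here are the 8 rat genes RT1-Ba, RT1-Bb, RT1-Da, RT1-Db1, RT1-DMa, RT1-DMb, Cd74 and Ciita, the core of the MHC class II antigen presentation system. They were chosen by name, and all 8 were found among the 17172 genes and loci of the deposited tables and passed the expression filter, with 87 to 46900 expected counts per library. The source was bone marrow of 6 ACI rats aged 6 to 8 weeks, from which c-kit+ cells were enriched with an antibody, and poly(A) RNA was sequenced as 1 library per rat. In the study 3 rats received phenylhydrazine (PHZ) at 100 mg/kg intraperitoneally and 3 received phosphate-buffered saline (PBS), and all were killed 36 h later. PHZ damages red cells and produces haemolytic anaemia. By the labels, replicate 2 of each group was male and the other 4 rats were female.

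MHC class II molecules are paired alpha and beta chains that show peptides from endosomes to CD4 T cells. They are known from dendritic cells, B cells and macrophages, which present antigen to T cells. Cd74, the invariant chain, holds newly made class II molecules until they reach the endosome, where RT1-DM, the rat form of the DM chaperone, helps to exchange its remnant for a peptide. Ciita is the coactivator that switches these genes on. It does not bind DNA itself but docks on factors assembled at conserved promoter elements, the X box, bound by RFX proteins, and the Y box, bound by NF-Y.

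The promoter elements are shown because they are the feature these genes are known to share. RefSeq start sites of the assembly GRCr8 were available for 6 of the 8 genes, and RT1-DMb and Ciita were not in that table. Windows of 300 bases, 250 before and 50 after each start, were searched on both strands for the Y box core ATTGG and for an X box pattern of CNAG, any 2 bases, AC, any 3 bases and TG. A shorter pattern, the last 10 letters of the X box pattern from its G onwards, which overlaps it in each match, was added after the sequences had been seen. Capitals mark the shorter X box pattern, where it was found upstream of a Y box, and the Y box core, which is reversed (CCAAT) in Cd74.
RT1-Ba, chr20:4576966-4577028, plus strand: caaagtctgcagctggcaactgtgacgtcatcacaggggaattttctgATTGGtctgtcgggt
RT1-Bb, chr20:4604165-4604226, minus strand: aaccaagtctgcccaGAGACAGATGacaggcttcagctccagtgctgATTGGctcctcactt
RT1-Da, chr20:4515318-4515380, plus strand: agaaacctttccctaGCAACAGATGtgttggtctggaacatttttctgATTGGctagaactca
RT1-Db1, chr20:4560228-4560289, minus strand: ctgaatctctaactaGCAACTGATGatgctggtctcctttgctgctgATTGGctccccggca
RT1-DMa, chr20:4712385-4712447, minus strand: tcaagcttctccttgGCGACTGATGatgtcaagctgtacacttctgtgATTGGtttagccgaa
Cd74, chr18:56526975-56527031, plus strand: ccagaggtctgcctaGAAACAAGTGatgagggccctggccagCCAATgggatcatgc

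All 6 windows held a Y box core, as did 37.5% of all 33469 windows. The X box pattern was found in 4 of the 6, RT1-Bb, RT1-Da, RT1-Db1 and Cd74, and in 3.43% of all windows. An X box followed within 40 bases by a Y box on the same strand was found for RT1-Bb, RT1-Da and RT1-Db1, 3 of the 6, and in 0.146% of all windows, and with the Y box in either orientation for those genes and Cd74, 4 of the 6, and in 0.251%. The shorter pattern alone stood in 6 of the 6 windows and in 39.8% of all. With it, RT1-DMa also had the pair, which stood in 4 of the 6 windows and in 1.86% of all windows. The boxes were 22 or 23 bases apart in RT1-Bb, RT1-Da, RT1-Db1 and RT1-DMa, with 17 bases between them in Cd74. RT1-Ba had the Y box core and no X box by either pattern at that place. These matches describe letters in the reference genome and say nothing of binding in these cells.

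The libraries held 13196249 to 19492793 expected counts. Across all genes, 13.2% of the 13547 tested genes were called between PHZ and PBS by edgeR's quasi-likelihood test at a Benjamini-Hochberg adjusted p under 0.05, 4.17% lower in PHZ and 8.99% higher. Y-linked transcripts went against the sex label in 3 libraries, PHZ replicate 3 and PBS replicate 1, labelled female with 2139 and 3298 Y-linked counts, and PBS replicate 2, labelled male with 1 count. PBS replicate 1 also stood apart in transcripts of other marrow cells. The stromal and endothelial list summed to 10.9 to 21.5 FPKM (fragments scaled to transcript length and library size) in PHZ libraries, to 227.9 FPKM in PBS replicate 1 and to 31.7 FPKM in the lowest PBS library. Kit itself was 8.36, 10.5 and 15.5 FPKM in PHZ replicates 1, 2 and 3 and 12.9, 14.7 and 10.6 FPKM in PBS replicates 1, 2 and 3 (edgeR adjusted p = 0.841).

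In the comparison of PHZ with PBS, all 8 genes had a lower mean in PHZ libraries, by 1.22-fold for RT1-DMa to 2.10-fold for Cd74, and none passed the test. The groups overlapped for all 8. In FPKM, replicate 1 was the highest library of each group and that of PHZ lay above PBS replicates 2 and 3, while in scaled CPM (counts scaled to library size) Ciita in PHZ replicate 1, at 20.2, lay above PBS replicate 2, at 17.8, and below PBS replicate 3, at 21.0. The 4 chains of the classical molecules, Cd74 and Ciita differed by 1.68-fold or more, and the DM chains by 1.24-fold or less. In bulk samples such as these, fewer cells of a type and less RNA per cell cannot be told apart.

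Cd74 was the most abundant of the 8 genes. Its level was 1148, 361 and 532 FPKM in PHZ replicates 1, 2 and 3, against 2561, 901 and 876 FPKM in PBS replicates 1, 2 and 3. PHZ replicate 1 lay above 2 of the PBS libraries, so the groups overlapped, while PHZ replicates 2 and 3 lay below all PBS libraries. The mean was 680.3 ± 414 FPKM in PHZ and 1446 ± 966 FPKM in PBS (SD, n = 3), a log2 fold change of -1.07 with a standard error of 0.54 (edgeR adjusted p = 0.216). By FPKM Cd74 ranked 75th, 225th and 141st of all genes in PHZ replicates 1, 2 and 3, and 19th, 95th and 83rd in PBS replicates 1, 2 and 3.

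RT1-Da and RT1-Db1 encode the alpha and beta chains of RT1-D, the rat counterpart of HLA-DR. RT1-Da stood at 231.8, 38.4 and 79.5 FPKM in PHZ replicates 1 to 3 and at 427, 125.8 and 150.2 FPKM in PBS replicates 1 to 3. Its log2 fold change was -1.02 with a standard error of 0.71 (edgeR adjusted p = 0.351). RT1-Db1 stood at 97.3, 21.1 and 35.2 FPKM in PHZ replicates 1 to 3 and at 172.8, 54.3 and 71.9 FPKM in PBS replicates 1 to 3. Its log2 fold change was -0.99 with a standard error of 0.61 (edgeR adjusted p = 0.30). In both genes PBS replicate 1 was the highest library and PHZ replicate 2 the lowest, in FPKM 11.1-fold apart for RT1-Da and 8.20-fold apart for RT1-Db1. The spread was narrower in scaled CPM, at 472.3 and 50.7 for RT1-Da and 213.0 and 30.9 for RT1-Db1 in these libraries. The alpha chain transcript was the higher of the pair in each library, with a ratio of FPKM of 2.15 ± 0.30 in PHZ and 2.29 ± 0.19 in PBS (SD, n = 3).

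RT1-Ba and RT1-Bb encode the chains of RT1-B, the rat counterpart of HLA-DQ. RT1-Ba had 170.3, 39.0 and 55.6 FPKM in PHZ replicates 1 to 3 and 316, 92.1 and 99.3 FPKM in PBS replicates 1 to 3. Its log2 fold change was -0.93 with a standard error of 0.67 (edgeR adjusted p = 0.362). RT1-Bb had 157 FPKM in PHZ replicate 1, 32.9 in replicate 2 and 57.4 in replicate 3, and in PBS replicates 1 to 3 it had 237, 83.3 and 95.7 FPKM. Its log2 fold change was -0.75 with a standard error of 0.61 (edgeR adjusted p = 0.421). The same library, replicate 1, was high within each group for both chains, and the groups overlapped. The 2 chains had close to equal levels per length, with a ratio of 1.08 ± 0.11 in PHZ and 1.16 ± 0.15 in PBS (SD, n = 3).

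RT1-DMa and RT1-DMb encode the chaperone that edits the peptides bound by class II molecules. RT1-DMa had 55.9, 19.7 and 27.9 FPKM in PHZ replicates 1 to 3 and 50.04, 40.1 and 37.6 FPKM in PBS replicates 1 to 3. Its highest library was PHZ replicate 1, while PHZ replicates 2 and 3 lay below all PBS libraries. RT1-DMb, whose expected counts are not whole, as for RT1-Bb and RT1-Db1, since some reads were shared with other loci, had 64.4, 31.8 and 42.6 FPKM in PHZ replicates 1 to 3 and 67.4, 59.7 and 48.8 FPKM in PBS replicates 1 to 3. The log2 fold changes were -0.29 with a standard error of 0.31 for RT1-DMa (edgeR adjusted p = 0.542) and -0.31 with a standard error of 0.21 for RT1-DMb (edgeR adjusted p = 0.324). The range of FPKM over the 6 libraries was 2.84-fold for RT1-DMa and 2.12-fold for RT1-DMb, narrower than the 6.69-fold to 11.1-fold of the other 6 genes.

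Ciita, the coactivator, was the lowest of the 8 genes by level. It had 4.32, 0.95 and 2.08 FPKM in PHZ replicates 1 to 3, which rest on 426, 87 and 141 expected counts. It had 6.36, 3.71 and 3.94 FPKM in PBS replicates 1 to 3, which rest on 506, 305 and 320 expected counts. The mean was 2.45 ± 1.72 FPKM in PHZ and 4.67 ± 1.47 FPKM in PBS (SD, n = 3), a log2 fold change of -0.93 with a standard error of 0.48 (edgeR adjusted p = 0.223).

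**Figure D1:**
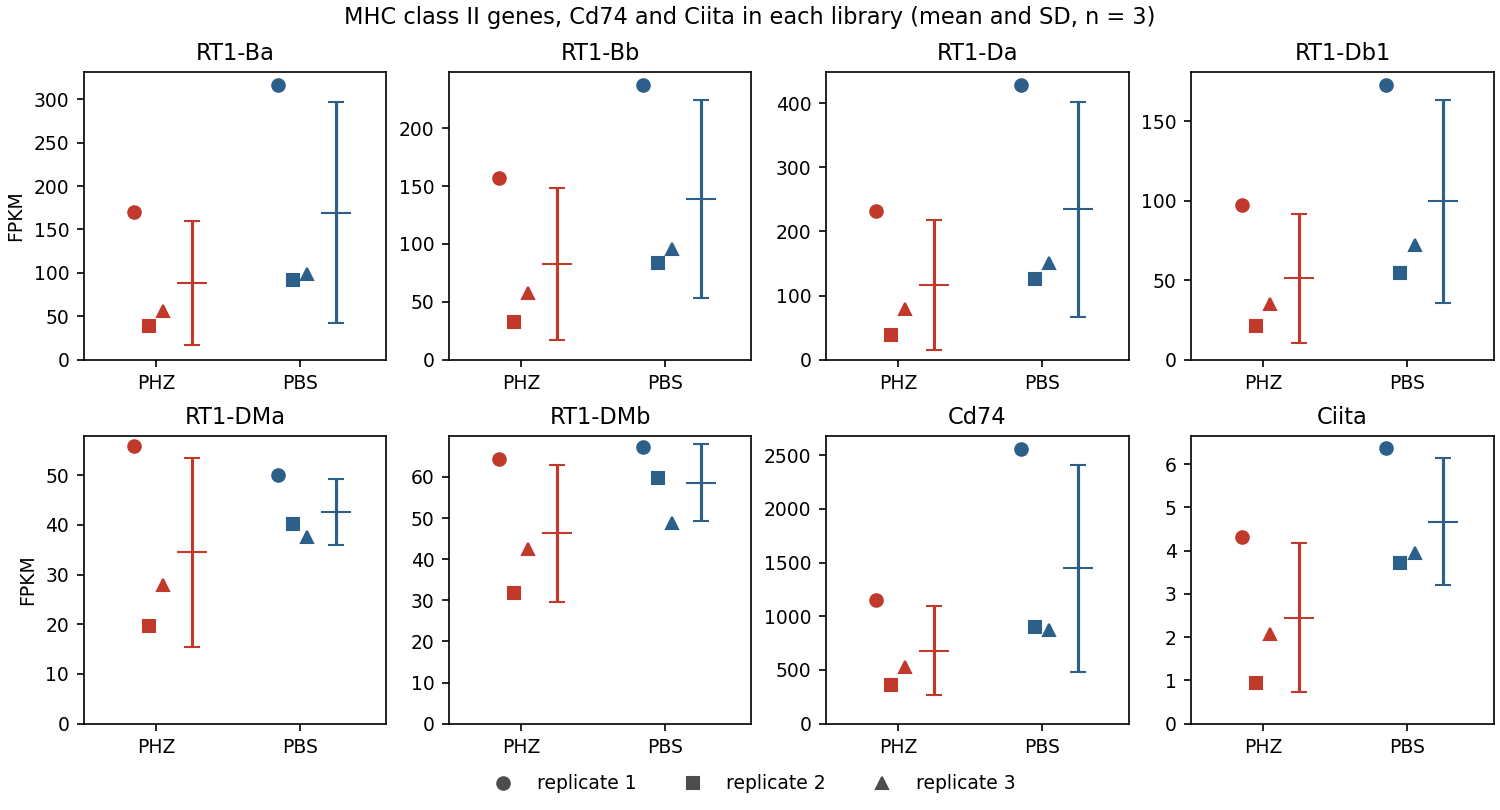
FPKM of each of the 8 genes in each library, with PHZ in red and PBS in blue, marker shapes for replicates 1 to 3, and the mean and SD of 3 rats beside them. Replicate 1 is the highest library within both groups for all 8 genes, and PHZ replicates 2 and 3 lie below all PBS libraries.

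The order of the mean levels was the same in both groups, with Cd74 first and followed by RT1-Da, RT1-Ba, RT1-Bb, RT1-Db1, RT1-DMb, RT1-DMa and Ciita. From RT1-Da down to RT1-DMa, neighbours in this order differed by less than the larger SD of the pair, except RT1-DMb and RT1-DMa in PBS, at 58.6 ± 9.34 and 42.6 ± 6.56 FPKM (SD, n = 3). Together the 8 genes made up 0.145% ± 0.109 of all FPKM in PHZ and 0.281% ± 0.189 in PBS (SD, n = 3). The summed FPKM of the 4 classical genes was 656, 131 and 228 in PHZ replicates 1 to 3 and 1154, 355.5 and 417 in PBS replicates 1 to 3. That of the DM genes was 120.3, 51.5 and 70.4 in PHZ replicates 1 to 3 and 117, 99.8 and 86.4 in PBS replicates 1 to 3. The ratio of classical to DM levels thus ran from 2.55 to 5.46 in PHZ and from 3.56 to 9.82 in PBS libraries, highest in replicate 1 of each group. Cd74 kept closer to the classical genes, at 2.28 ± 0.50 times their summed FPKM in PHZ and 2.29 ± 0.22 times in PBS (SD, n = 3).

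**Figure D2:**
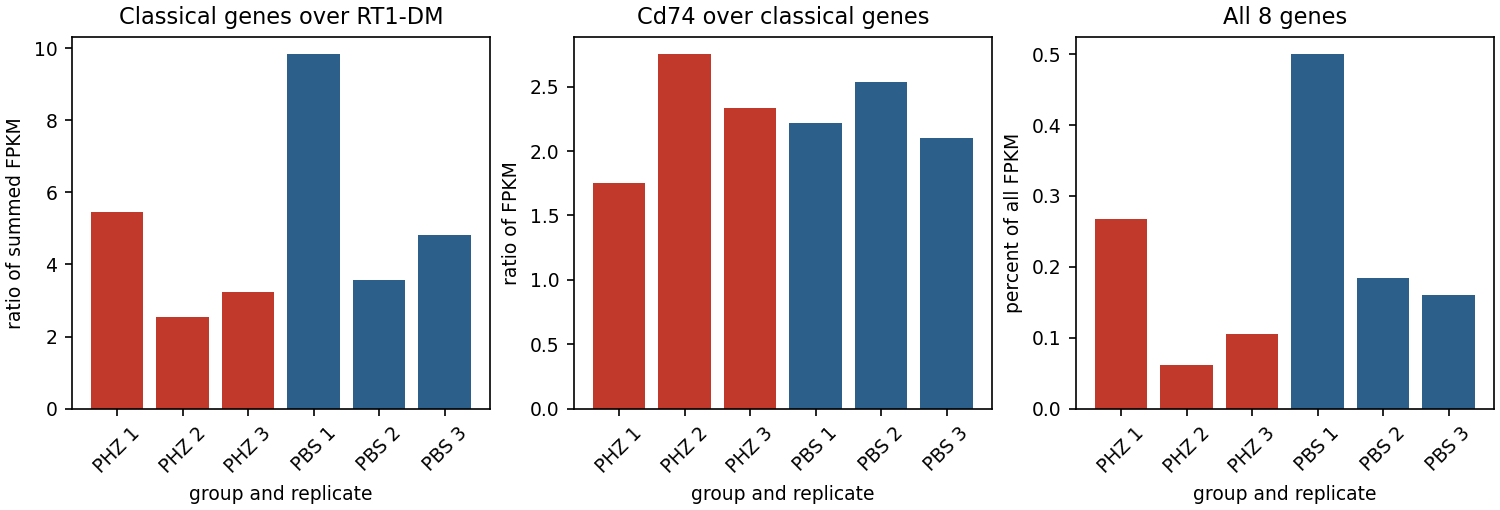
Ratio of the summed FPKM of RT1-Ba, RT1-Bb, RT1-Da and RT1-Db1 to that of RT1-DMa and RT1-DMb, ratio of Cd74 to the summed classical genes, and percent of all FPKM in the 8 genes, as 1 bar per library with PHZ in red and PBS in blue. The classical to DM ratio is highest in PBS replicate 1 (9.82) and PHZ replicate 1 (5.46), while the Cd74 ratio runs from 1.75 to 2.75.

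None of the 8 genes was called, against 13.2% of all tested genes, and none had an unadjusted p under 0.05, against 34.1%. DESeq2 also called none of the 8, with 2 at an unadjusted p under 0.05. In none of the 8 did the groups stop overlapping, against 41.7% of all tested genes. The estimate was lower in PHZ for 8 of 8, against 52.4% of all tested genes, with a median log2 fold change of -0.93 beside -0.04 over all tested genes. The median depended on the highest library of each group. It was -1.54 without PHZ replicate 1, where all 8 genes had an unadjusted p under 0.05 and none was called, and -0.25 without PBS replicate 1. Without PHZ replicate 2 it was -0.59, and without the 3 libraries that go against their sex label it was -0.23. In the authors' deposited table, Cd74 and RT1-Da were marked as lower in PHZ, with log2 ratios of -1.09 and -1.01, and the other 6 genes were not marked, while 6.89% of the genes of that table were marked as lower. Each of the genes marked in that table had a log2 ratio of at least 1.00 in size.

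**Figure D3:**
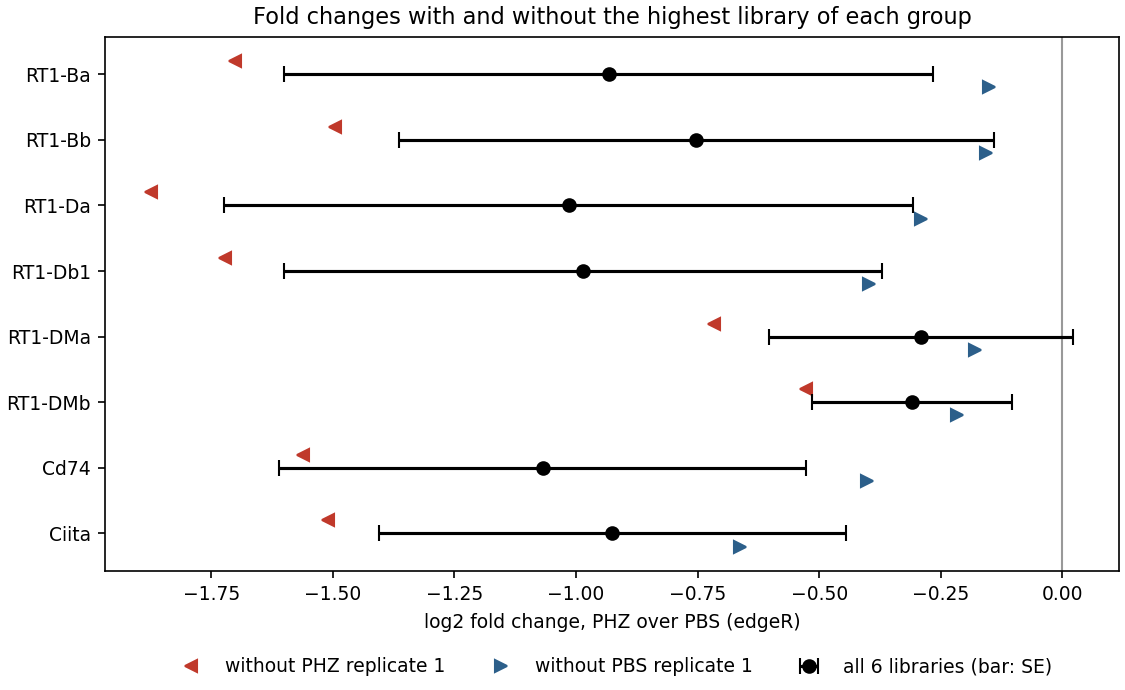
edgeR log2 fold change of PHZ over PBS for each gene (horizontal axis, black points with standard errors), and the same without PHZ replicate 1 (red) or without PBS replicate 1 (blue). For RT1-Da the value is -1.02 with all libraries, -1.87 without PHZ replicate 1 and -0.29 without PBS replicate 1.

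The 8 genes varied together across the libraries. Over the 28 pairs of genes, Pearson's r of log2 CPM over the 6 libraries ran from 0.86 to 1.00 with a median of 0.95, as a description of 6 libraries that share 2 groups. The 10 genes whose pattern was most like the mean of the 8, among 8697 named genes, were Glmp, Tmbim1, Rcan3, Cd302, Ptgr2, Snx30, Il5ra, Washc2c, Serpinb9 and P2ry10, with r from 0.99 to 1.00. Many other named genes also followed that mean. Cd274, picked after its values were seen, ranked 484th of the 8697 and still had an r of 0.86 with it. Glmp encodes a lysosomal membrane protein, Il5ra a subunit of the interleukin 5 receptor and Cd302 a C-type lectin receptor. Il5ra had 13.5, 3.94 and 5.64 FPKM in PHZ replicates 1 to 3 and 18.2, 8.34 and 8.58 FPKM in PBS replicates 1 to 3, highest in replicate 1 of each group and lowest in PHZ replicate 2, as in the class II genes.

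Other class II genes had the same direction. RT1-DOa and RT1-DOb encode the DO protein, a modulator of DM that is known from B cells. RT1-DOb had 17.7, 3.79 and 6.35 FPKM in PHZ replicates 1 to 3 and 39.2, 20.4 and 18.8 FPKM in PBS replicates 1 to 3. Its groups did not overlap, as in 41.7% of all tested genes, with a log2 fold change of -1.48 and a standard error of 0.56 (edgeR adjusted p = 0.120). RT1-DOa had 9.44, 1.13 and 1.48 FPKM in PHZ replicates 1 to 3 and 21.2, 5.99 and 6.50 FPKM in PBS replicates 1 to 3 (edgeR adjusted p = 0.286). RT1-Db2, a second RT1-D beta gene and one that was picked after its values were seen, stayed at or below 0.49 FPKM in PHZ and at 0.85 to 1.42 FPKM in PBS libraries (edgeR adjusted p = 0.121). RT1-Ha did not pass the expression filter. Of the 3 tested genes of this list none was called, against 13.2% of all tested genes, and the median log2 fold change was -1.48.

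Of 7 genes of the promoter complex (Rfx5, Rfxap, Rfxank, Nfya, Nfyb, Nfyc and Creb1) none was called, against 13.2% of all tested genes. Their median log2 fold change was 0.05. Nfyc, a subunit of the Y box factor, had 50.04, 49.6 and 55.5 FPKM in PHZ replicates 1 to 3 and 52.4, 53.5 and 49.1 FPKM in PBS replicates 1 to 3. Creb1, which binds the X2 element beside the X box, had 13.7, 9.57 and 13.3 FPKM in PHZ replicates 1 to 3 and 13.7, 12.8 and 12.5 FPKM in PBS replicates 1 to 3. The other subunits of the Y box factor, picked after their values were seen, had higher levels in PHZ libraries but were not called. Their groups did not overlap, which held for 2 of the 7 genes of this list and for 41.7% of all tested genes. Nfyb had 11.3, 16.3 and 11.1 FPKM in PHZ replicates 1 to 3 and 9.55, 9.24 and 8.31 FPKM in PBS replicates 1 to 3 (log2 fold change 0.60, edgeR adjusted p = 0.129). Nfya had 16.0, 14.3 and 14.8 FPKM in PHZ replicates 1 to 3 and 10.3, 13.9 and 13.1 FPKM in PBS replicates 1 to 3 (log2 fold change 0.34, edgeR adjusted p = 0.169). Rfx5, a DNA-binding subunit of RFX that was picked after its values were seen, had 7.08 to 7.37 FPKM in PHZ and 8.22 to 9.48 FPKM in PBS libraries (edgeR adjusted p = 0.292). Its groups did not overlap in FPKM but did overlap in scaled CPM.

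Among 12 genes that act on Ciita, 2 fell and none rose, with a median log2 fold change of -0.48. Over all tested genes, 4.17% fell and 8.99% rose. Irf4, an interferon regulatory factor of lymphoid and dendritic cells, fell to 7.75, 4.59 and 6.49 FPKM in PHZ replicates 1 to 3, against 29.4, 17.7 and 19.0 FPKM in PBS replicates 1 to 3 (3.42-fold, edgeR adjusted p = 0.0169). Pax5, the factor of B cell commitment, fell to 12.9, 5.29 and 10.5 FPKM in PHZ replicates 1 to 3, against 31.9, 37.2 and 33.4 FPKM in PBS replicates 1 to 3 (3.59-fold, edgeR adjusted p = 0.0215). Unlike in the 8 genes, the PHZ and PBS libraries did not overlap for either factor. The same held for 8 of the 12 genes of this list and for 41.7% of all tested genes. PBS replicate 1 was not the highest library for Pax5. These calls, like those of all other genes named here as risen or fallen, were absent without PBS replicate 2, without PBS replicate 3 and without the 3 libraries that go against their sex label, where edgeR called 0 genes (3325, 3291 and 1480 at an unadjusted p under 0.05). Irf4 also missed the threshold without PHZ replicate 2 (edgeR adjusted p = 0.0507) and Pax5 without PHZ replicate 3 (edgeR adjusted p = 0.0538).

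The endosomal processing list held no called gene among 11, with a median of -0.07, while 13.2% of all tested genes were called. Ctsb, cathepsin B, had 970, 1131 and 938 FPKM in PHZ replicates 1 to 3 and 914, 469 and 504 FPKM in PBS replicates 1 to 3 (edgeR adjusted p = 0.124). Ctsd, cathepsin D, had 333, 264 and 249 FPKM in PHZ replicates 1 to 3 and 340, 210 and 222 FPKM in PBS replicates 1 to 3 (edgeR adjusted p = 0.573). Ctss, the cathepsin that trims Cd74 in antigen-presenting cells and one that was picked after its values were seen, had 102.8, 41.9 and 54.1 FPKM in PHZ replicates 1 to 3 and 142, 49.0 and 52.4 FPKM in PBS replicates 1 to 3 (edgeR adjusted p = 0.726). The costimulation list held none among 5 tested genes, with a median of -0.55. Cd83 had 46.0, 13.9 and 15.7 FPKM in PHZ replicates 1 to 3 and 86.1, 32.7 and 41.6 FPKM in PBS replicates 1 to 3. Cd86, a ligand of CD28, had 16.9, 8.26 and 10.4 FPKM in PHZ replicates 1 to 3 and 24.2, 15.1 and 13.6 FPKM in PBS replicates 1 to 3. In both, replicate 1 was the highest library of its group, as in the class II genes. The interferon gamma target list, whose inducer is known to raise Ciita, held none called among 7 tested genes, with a median of -0.74. Its Irf1 had 58.0, 31.1 and 46.6 FPKM in PHZ replicates 1 to 3 and 63.0, 105.1 and 76.1 FPKM in PBS replicates 1 to 3 (edgeR adjusted p = 0.0645).

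Class I presentation, the parallel pathway for cytosolic peptides, gave 1 rise and 1 fall among 17 tested genes, close to the 13.2% called over all tested genes. Its median log2 fold change was 0.06. Tap1, a subunit of the peptide transporter, rose to 60.5, 52.2 and 41.7 FPKM in PHZ replicates 1 to 3, against 27.5, 32.97 and 26.0 FPKM in PBS replicates 1 to 3 (1.86-fold, edgeR adjusted p = 0.0251, and 0.0682 without PHZ replicate 2). Tap1 lies between RT1-DOb and RT1-DMb in the gene order of the assembly GRCr8, together with Tap2, Psmb8 and Psmb9, which were not called. RT1-A3, a class I gene with close copies, so that its count is uncertain, fell to 53.9, 46.9 and 61.5 FPKM in PHZ replicates 1 to 3, against 75.8, 97.7 and 86.7 FPKM in PBS replicates 1 to 3 (1.61-fold, edgeR adjusted p = 0.0373, and 0.0648 to 0.107 without any 1 of the PHZ libraries).

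Marker genes of cells that carry class II moved in part with these genes. Their part in the class II levels was not tested. Of 13 dendritic cell genes 10 were listed and 7 tested, and none was called, against 13.2% of all tested genes. The summed level of the list was 11.1 to 36.7 FPKM in PHZ and 39.9 to 83.4 FPKM in PBS libraries, highest in PBS replicate 1. Its Tcf4, a factor of plasmacytoid dendritic cells, had 10.7, 2.06 and 6.08 FPKM in PHZ replicates 1 to 3 and 15.4, 13.8 and 10.5 FPKM in PBS replicates 1 to 3, and Clec10a had 8.37, 5.53 and 8.35 FPKM in PHZ and 39.3, 13.1 and 17.0 FPKM in PBS replicates 1 to 3. Itgax, Xcr1 and Siglech of this list were listed in no library. Other defining markers, picked after their values were seen, were low, with Zbtb46 at 0.08 to 0.17 FPKM in PHZ and 0.13 to 0.82 FPKM in PBS libraries and Clec9a at 0.11 to 0.24 FPKM in PHZ and 0.16 to 0.57 FPKM in PBS libraries. Of 15 monocyte and macrophage genes 14 were listed and 13 tested, and none was called. Their sum was 905 to 1478 FPKM in PHZ and 1051 to 2972 FPKM in PBS libraries, again highest in PBS replicate 1. C1qc, a complement gene of macrophages, had 317, 189 and 224 FPKM in PHZ replicates 1 to 3 and 733, 264 and 257 FPKM in PBS replicates 1 to 3. Cd163, the haemoglobin scavenger receptor, had 62.4, 38.4 and 45.8 FPKM in PHZ replicates 1 to 3 and 116, 30.1 and 36.5 FPKM in PBS replicates 1 to 3.

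Of 15 B lineage genes 14 were listed and tested, and 7 fell, among them Cd79b, Pax5, Ebf1, Blnk, Fcrla and Spib, with a median log2 fold change of -1.65. Over all tested genes, 4.17% fell. The list summed to 165 to 224 FPKM in PHZ and 513 to 568 FPKM in PBS libraries, which did not overlap. Gene by gene, the groups did not overlap for 9 of the 14 tested genes of the list, against 41.7% of all tested genes. Cd79b, a part of the B cell receptor, fell to 47.0, 24.4 and 31.9 FPKM in PHZ replicates 1 to 3, against 129.6, 101.6 and 90.3 FPKM in PBS replicates 1 to 3 (edgeR adjusted p = 0.0169). Ebf1, a factor of early B cells, fell to 4.06, 2.91 and 5.77 FPKM in PHZ replicates 1 to 3, against 11.8, 23.7 and 19.7 FPKM in PBS replicates 1 to 3 (edgeR adjusted p = 0.0238, and 0.0866 without PHZ replicate 2), and PBS replicate 1 was its lowest PBS library. Fcrla and Spib lost the call without PHZ replicate 2 or without PHZ replicate 3. The genes of the list that were not called differed in their order of libraries, and those described next were picked after their values were seen. Ms4a1, which encodes CD20, had 26.6, 7.08 and 10.4 FPKM in PHZ replicates 1 to 3 and 51.1, 20.3 and 20.7 FPKM in PBS replicates 1 to 3 (edgeR adjusted p = 0.145). Its r with the mean of the class II genes was 0.97, and that of Bank1, a B cell adaptor, was also 0.97, over the 6 libraries. Cr2, the complement receptor of mature B cells, had 10.3, 0.88 and 1.10 FPKM in PHZ replicates 1 to 3 and 10.4, 4.20 and 6.30 FPKM in PBS replicates 1 to 3. Ms4a1 and Cr2 were highest in replicate 1 of each group and lowest in PHZ replicate 2, as were all 8 genes described here. Cd22, an inhibitory receptor of B cells and the most abundant gene of the list by average log2 CPM, had the opposite order, at 26.7, 54.4 and 47.7 FPKM in PHZ replicates 1 to 3 and 40.9, 55.2 and 51.3 FPKM in PBS replicates 1 to 3. It was lowest in replicate 1 of each group, with an r of -0.59 with the mean of the class II genes over the 6 libraries and a log2 fold change of -0.15 (edgeR adjusted p = 0.766).

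**Figure D4:**
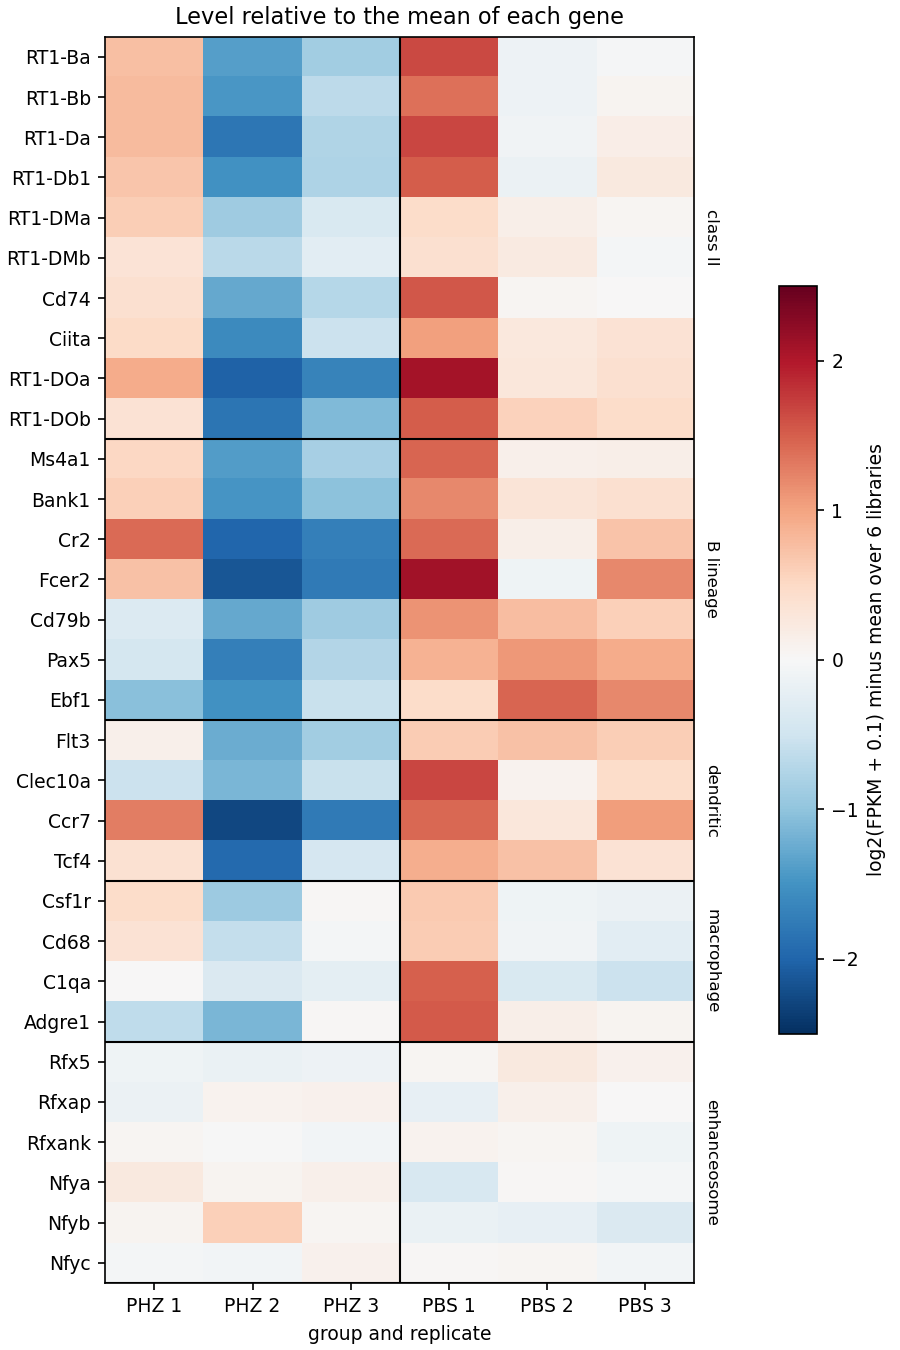
log2(FPKM + 0.1) of the 8 genes, RT1-DOa, RT1-DOb and selected genes of 4 lists, as the difference from the mean of each gene over 6 libraries (red higher, blue lower), with PHZ libraries left of the line. The class II genes and Ms4a1, Bank1 and Cr2 are red in PHZ replicate 1 and PBS replicate 1 and blue in PHZ replicates 2 and 3, while Rfx5, Rfxap, Rfxank and Nfyc stay pale in all libraries and Nfyb is reddest in PHZ replicate 2.

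The T and NK list had 6 called genes of 9, all lower in PHZ (Cd3e, Cd3g, Cd8a, Cd5, Cd2 and Lck), while 4.17% of all tested genes fell. The list summed to 140 to 151 FPKM in PHZ and 240 to 275 FPKM in PBS libraries, mostly from Nkg7 and Cd4, which were not called. Nkg7, picked after its values were seen, had 74.51, 97.81 and 67.53 FPKM in PHZ and 44.32, 170.77 and 157.56 FPKM in PBS replicates 1 to 3. Each of the 6 called genes was lower than both in every library. Cd3e had 0.30, 0.72 and 0.56 FPKM in PHZ replicates 1 to 3, on 7, 17 and 9 expected counts, and 2.53, 5.57 and 7.29 FPKM in PBS replicates 1 to 3. Without PHZ replicate 2 none of the 6 passed the threshold, without PHZ replicate 3 Lck alone did, and without PHZ replicate 1 all but Cd3g did. Cd4, picked after its values were seen, whose product binds class II molecules and which rat macrophages are also known to carry, was not called, at 52.1, 45.2 and 60.8 FPKM in PHZ replicates 1 to 3 and 165.5, 57.6 and 55.6 FPKM in PBS replicates 1 to 3. Of the stromal and endothelial list, 2 of 7 tested genes fell, Pecam1 (2.28-fold) and Kdr (6.84-fold), against 4.17% of all tested genes. Kdr differed by 3.70-fold without PBS replicate 1. Both lost the call without PHZ replicate 2 (edgeR adjusted p = 0.0555 for Pecam1 and 0.133 for Kdr) or PHZ replicate 3 (0.0569 for Pecam1 and 0.1001 for Kdr), and Kdr also without PHZ replicate 1 (0.0577). Among 7 tested erythroid genes 3 rose, Klf1, Gata1 and Tfrc, and none fell, while over all tested genes 8.99% rose and 4.17% fell. Klf1 and Gata1 lost the call without PHZ replicate 3, and Tfrc without PHZ replicate 2.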

How the data were processed

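Poly(A) RNA of c-kit-enriched marrow cells from 6 rats was measured. The build rn6 and the tools RSEM, GATK and HISAT are named, without roles, in the submitters' processing notes; their settings were not stated. The authors deposited, per the file headers, expected counts (estimates that need not be whole) and FPKM for each gene in each library. Genes not listed in a library were set to 0. The authors' deposited table of the comparison gives a log2 ratio (PHZ over PBS), both group means in FPKM and, as a score, a column called Probability. The build comes from BN rats, whose MHC alleles are known to differ from those of ACI rats, and the effect of this on the levels was not tested. RT1-Bb, RT1-Db1 and RT1-DMb have expected counts that are not whole, so some of their reads were divided between loci and their levels are uncertain to that extent.

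Expected counts were rounded and tested with edgeR 4.0.16 in R 4.3.3 (TMM, filterByExpr by group, robust quasi-likelihood fit, treatment as the only term, Benjamini-Hochberg adjustment over 13547 genes), with each standard error being the fold change on the log2 scale divided by the root of its F statistic. Residual degrees of freedom were 4. The code was tested on simulated data. Alternatives used DESeq2 1.42.0, limma 3.58.1 on FPKM, other scaling and filters, covariates and fewer libraries. Replicates differed by more than sampling noise (chi-square per degree of freedom 50.7 to 185 within groups), so none were merged. Replicate numbers were not taken as a pairing of the libraries.

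The genes and lists were chosen with earlier results of these data known. Named genes are the 8 genes, the called genes of each list or else its 2 most abundant by average log2 CPM, Kit, and the 10 genes whose log2 CPM (prior count 2, average at least 2) best correlated with the mean of the 8, and others are said to be picked after their values were seen. For the B lineage, T and NK and erythroid lists some called genes are given by name or count alone, and some genes that the rule names are not reported here. Where a list symbol was not in the authors' table, the RefSeq table was used. For 6 libraries the precision is set by the spread between 3 rats per group, and expected counts above 80 for every one of the 8 genes leave counting error small beside it.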

Additional observations from a re-analysis of the deposited data

How the results depend on the processing

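Over 14 alternatives all 112 log2 fold changes of the 8 genes stayed lower in PHZ and none was called, which leaves 0 called genes of 8 in each. Among the fits without 1 library, the median log2 fold change lay between -1.54, when PHZ replicate 1 was dropped, and -0.25, when PBS replicate 1 was dropped. It was closest to 0 over the 14 alternatives, at -0.23, without the 3 libraries that go against their sex label, an alternative chosen after seeing the data. The count over all genes moved more. From 1783 called genes it went to 3469 with DESeq2, 928 with sex as labelled as a covariate and 0 once those 3 libraries were dropped (1480 at an unadjusted p under 0.05). Leaving out 1 library gave 0 to 1744 called genes, with 0 called by edgeR after dropping PBS replicate 2 (3325 with an unadjusted p under 0.05) or PBS replicate 3 (3291), 266 without PHZ replicate 2 and 572 without PHZ replicate 3. With the replicate number as a block edgeR called 0 genes of all (4641 at an unadjusted p under 0.05), and 6 of the 8 genes had an unadjusted p under 0.05, with a median of -0.97. The deviations of libraries with the same number correlated at 0.21, 0.06 and 0.00, and those with different numbers at -0.17 to 0.15. The number was not taken as a pairing, though so few values cannot exclude one. The cause of these moves was not tested. With 3 rats per group the smallest p of an exact two-sided permutation test would be 0.1.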
